A study of Mus musculus with 139 samples.

Results

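Hand1, Cdx2, Gata2, Gata3, Elf3, Tfap2c and Eomes are transcription factors of the trophoblast, the outer cell layer of the mouse embryo that forms the placenta. They were taken as the rows of these 7 symbols in each of 7 tables of gene expression, 7 genes of 52885 per table. The rule uses names and no measured value, but the set was proposed with earlier results of these data known. All cells carried AID-FBEXOSC2, that is, EXOSC2, a subunit of the RNA exosome, with a degron that indole-3-acetic acid (IAA, 0.5 mM) targets for degradation. Untreated cells of the line (0 h) were the controls, and cells without the degron that received IAA were not analysed here, so loss of EXOSC2 and other effects of IAA cannot be told apart. The sources used here do not say whether the line is 1 clone.

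Total RNA freed of ribosomal RNA was measured in embryonic stem cells (ESCs), grown in serum with leukemia inhibitory factor (LIF), after 0, 4 and 20 h of IAA. The same was done in iMEFs, fibroblasts that the labels describe as made from these ESCs by 10 days in 1 µM retinoic acid without LIF and selected by quick attachment. Groups labelled RAD0 and RAD1 have polyadenylated RNA at the same 3 times, and the protocol gives 24 h in 2 µM retinoic acid without LIF. RAD0 is read here as before and RAD1 as after that treatment. The labels do not spell this out, nor whether IAA preceded retinoic acid. Other ESC libraries held nascent RNA labelled for 10 min with 1 mM 5-ethynyluridine (0, 1, 2 and 4 h), the cytosol, nucleoplasm, insoluble chromatin fraction (chrRNP) and whole-cell lysate (0 and 4 h), and the polyadenylated RNA that stays in the nuclear pellet when urea, salt, detergent and DNase I have extracted the rest (RNPmesh; 0, 4 and 12 h). Each of these groups had 2 libraries. Nuclear lysate separated on sucrose (0 and 12 h) had 1 library per fraction, from F2 to F9.

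Values were FPKM, fragments scaled to transcript length and library size, except for nascent RNA, where they were RPKM over the whole span of the gene. A change is the difference of group means of log2(value + 1), with its standard error, and understates the change of low genes. A gene was tested where at least 2 libraries of the table reached 1, and called higher or lower at an adjusted p under 0.05 (limma, Benjamini-Hochberg over all genes tested in the table). The libraries summed to between 109466 (nascent) and 952853 (fractions), and 14996 to 22550 genes were above 0. Summed ESC markers (Pou5f1, Sox2, Nanog and 4 others) were 1696 to 1753 in untreated ESCs and 0.837 to 1.27 in untreated iMEFs, where fibroblast markers reached 2339 to 2342. Summed retinoic acid response genes were 5.89 to 8.63 in RAD0 and 796.5 to 803.2 in RAD1 without IAA.

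In the embryo, CDX2 and GATA3 act downstream of the TEAD4 and YAP branch of Hippo signalling, and together with TFAP2C (AP-2 gamma) and EOMES they set up trophectoderm and maintain trophoblast stem cells. HAND1, a basic helix-loop-helix factor, drives the differentiation of trophoblast giant cells, and GATA2 acts with GATA3 in differentiating trophoblast and in blood. ELF3 is an epithelial ETS factor. Embryonic stem cells keep this program low through OCT4, NANOG and chromatin repressors. The same factors also act elsewhere: HAND1 in heart and mesoderm, CDX2 in the posterior embryo and gut, EOMES in primitive streak, TFAP2C in germ cells.

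The 7 genes lie on 6 chromosomes of mm10. Elf3 is at chr1:135253575-135258568, Gata3 at chr2:9857078-9878600, Tfap2c at chr2:172549593-172558622, Cdx2 at chr5:147300805-147307270, Gata2 at chr6:88193891-88207032, Eomes at chr9:118478212-118486132 and Hand1 at chr11:57828705-57832818. RefSeq promoters (GRCm38.p6, the mm10 assembly, 250 bases before to 50 after a start) were matched for 5 of the 7 genes. Those of Elf3 and Cdx2 are shown because Elf3 fell and Cdx2 rose after IAA, and because both hold the octamer core TGCAAAT that OCT4 family factors recognise. They are written 5′ to 3′ on the strand of the gene, here the minus strand for both. Capitals mark matches on either strand to any of 6 motifs searched: the GATA factor motif AGATAA, the AP-2 motif GCCNNNGGC, the TEAD motif GGAATG, the octamer core TGCAAAT, the TATA box TATAAA and the E-box CANNTG.
Elf3 promoter, chr1:135258423-135258722: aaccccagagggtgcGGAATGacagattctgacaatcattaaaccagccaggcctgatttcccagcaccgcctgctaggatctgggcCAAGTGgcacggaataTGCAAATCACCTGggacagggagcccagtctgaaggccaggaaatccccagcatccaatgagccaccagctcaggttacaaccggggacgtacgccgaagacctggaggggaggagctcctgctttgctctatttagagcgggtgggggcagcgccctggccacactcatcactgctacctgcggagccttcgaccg
Cdx2 promoter, chr5:147307200-147307499: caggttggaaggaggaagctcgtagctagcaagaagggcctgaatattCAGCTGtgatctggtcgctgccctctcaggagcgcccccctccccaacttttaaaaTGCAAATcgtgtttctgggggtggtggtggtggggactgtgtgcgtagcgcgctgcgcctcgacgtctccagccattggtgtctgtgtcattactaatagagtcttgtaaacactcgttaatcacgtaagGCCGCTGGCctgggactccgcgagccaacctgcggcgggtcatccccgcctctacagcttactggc
Distances below count from the RefSeq start, which is not the same base as the end of the span in the tables. In Elf3 the octamer core began 147 bases before the start and ran straight into an E-box, CACCTG, at 140 bases before it. A TEAD match stood 235 bases before the start. In Cdx2 the octamer core began 146 bases before the start, and an AP-2 match 16 bases before it. Octamer cores were found in 4.02% of 32851 promoters of this length in the RefSeq table, TEAD matches in 14.7%, AP-2 matches in 16.6% and E-boxes in 72.3%. Gata3 had 3 AP-2 matches between 246 and 221 bases before the start, and 1 of 2 Gata2 promoters had 1 AP-2 and 1 TEAD match. No motif of the 6 was found in the Eomes window, and none of the shown windows held AGATAA (11.2% of promoters) or TATAAA (13.6%). A match is a description of the letters.

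In untreated ESCs the 7 genes comprised 2 well above 1 FPKM and 5 at or below 1.21. Tfap2c was highest at 18.8 and 15.7 FPKM, followed by Elf3 at 10.2 and 10.3. Gata2 (1.21 and 0.995) and Eomes (1.01 and 0.575) overlapped in their libraries, as did Hand1 (0.202 and 0.456), Gata3 (0.262 and 0.234) and Cdx2 (0.366 and 0.0409). Tfap2c stood at percentile 84.5 of the 21434 genes above 0 and Cdx2 at percentile 27.5. The order in RAD0 without IAA was Elf3, Tfap2c, Gata2 and Eomes, with no overlap between neighbours, and Gata3, Hand1 and Cdx2 below them at 0 to 0.157. In untreated iMEFs Gata2 alone was above 1 (6.73 and 8.38).

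**Figure D1:**
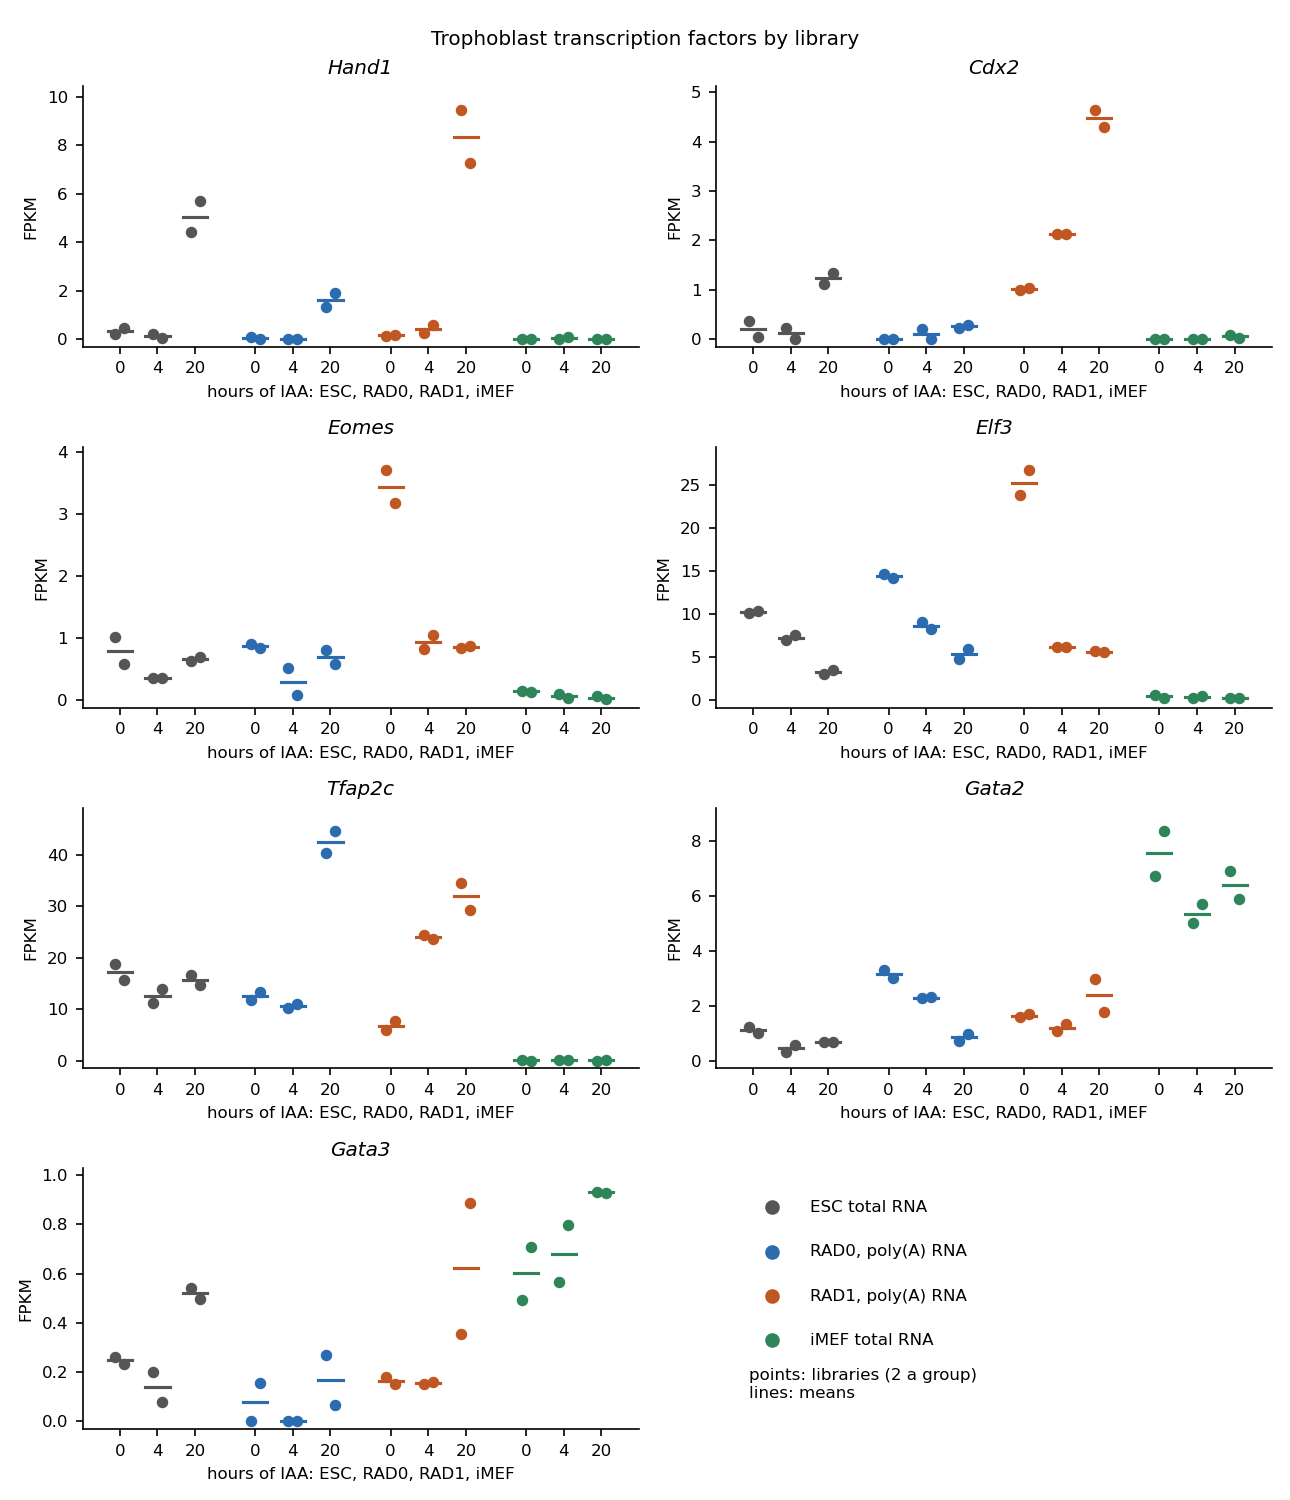
FPKM of each gene (vertical axis) in each library (points, 2 per group, with lines at means) at 0, 4 and 20 h of IAA (horizontal axis) in ESCs, RAD0, RAD1 and iMEFs. Hand1 and Cdx2 are highest in RAD1 at 20 h, Elf3 is lower in every IAA group than at 0 h of the same ESC, RAD0 or RAD1 series, Tfap2c reaches 40.4 and 44.7 in RAD0 at 20 h, and Gata2 is highest in iMEFs.

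After 20 h of IAA in ESCs, Hand1 and Cdx2 were higher, Elf3 was lower and Tfap2c was not called. Hand1 measured 0.202 and 0.456 at 0 h, 0.220 and 0.0580 at 4 h, and 4.41 and 5.69 at 20 h. The 20 h libraries lay above all others, a ratio of means of 15.3, and the change was 2.19 ± 0.18 (limma, adjusted p = 0.000131). Cdx2 was 0.366 and 0.0409 at 0 h, 0.235 and 0 at 4 h, and 1.13 and 1.34 at 20 h. It too was higher in both 20 h libraries than in any other, by 0.90 ± 0.21 (limma, adjusted p = 0.00679). Elf3 went from 10.2 and 10.3 over 6.97 and 7.54 to 3.06 and 3.53, with no overlap between times, and the 20 h change was -1.39 ± 0.11 (limma, adjusted p = 0.000127). Tfap2c was 18.8 and 15.7 at 0 h, 11.2 and 13.9 at 4 h, and 16.7 and 14.7 at 20 h, so the 0 h and 20 h libraries overlapped (-0.13 ± 0.15, adjusted p = 0.461, limma).

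The median of all genes changed by -0.76 between 0 and 20 h. Relative to that median Hand1 was at 2.94, Cdx2 at 1.66, Tfap2c at 0.63 and Elf3 at -0.64. With libraries rescaled to a common median, Tfap2c turned from the not called -0.13 to a called 0.59 (limma, adjusted p = 0.00333), while the directions of Hand1, Cdx2 and Elf3 held. Of the 4 members that passed the filter 3 were called, beside 77.3% of 12461 genes tested, so the number of calls does not set the members apart. Hand1 and Cdx2 passed the filter only through their 20 h libraries, where they were high, and left the test when 1 of those was left out, which leaves 1 member called. With a pseudocount of 0.1 Cdx2 was not called (adjusted p = 0.0533).

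From 4 to 20 h Hand1 changed by 2.41 ± 0.18 (adjusted p = 0.000317), Cdx2 by 1.01 ± 0.21 (adjusted p = 0.00703) and Elf3 by -0.94 ± 0.11 (adjusted p = 0.000969; all by limma). These 3 calls stood beside 56.4% of all genes, and again Hand1 and Cdx2 passed the filter only through the 20 h libraries, so that without either of those 1 member was called. At 4 h Elf3 was the member called, at -0.45 ± 0.11 (limma, adjusted p = 0.0387), beside 25.6% of all genes, whose median was -0.31. That call was lost without the filter (adjusted p = 0.0776) and with rescaled libraries (adjusted p = 0.336), and in 5 of 6 fits that left out 1 ESC library, the exception being the fit without 4 h replicate 2. Tfap2c at 4 h, with libraries below those of 0 h, was at -0.43 ± 0.15 (limma, adjusted p = 0.0732), and was called without 4 h replicate 2 (adjusted p = 0.0415).

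Gata3, Gata2 and Eomes did not pass the filter in ESCs. Gata3 was 0.262 and 0.234 at 0 h, 0.200 and 0.0771 at 4 h, and 0.541 and 0.499 at 20 h. Its 20 h libraries were above all others, and with no filter its difference from 0 h was 0.28 (limma, adjusted p = 0.0391). Gata2 was 1.21 and 0.995 at 0 h and 0.678 and 0.670 at 20 h. Eomes was 1.01 and 0.575 at 0 h, 0.354 and 0.356 at 4 h, and 0.627 and 0.697 at 20 h, with overlap between 0 and 20 h. An antisense gene, Gm33460, overlaps Eomes in the annotation and was between 0 and 0.58 in these libraries, up to 0.725 in the fractions, up to 1.09 in RAD0 and RAD1, and 0.298 to 1.99 in RNPmesh, where Eomes itself was at most 0.644. The sources used here do not say whether the authors' counting used strand, so reads of the pair cannot be told apart.

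Other genes of trophoblast biology in ESCs at 20 h moved in both directions. Of all 12461 genes tested, 9.47% were called higher and 67.8% lower as deposited, and 2678 and 4582 genes with rescaled libraries. Of 17 tested among 26 further trophoblast factors, 5 were called higher and 10 lower as deposited, against 9 higher and 5 lower with rescaled libraries. Fosl1, an AP-1 factor of giant cells and invasion, rose from 0.295 to 5.71 (2.38 ± 0.20, limma adjusted p = 0.000137), and Ets2, an ETS factor of trophoblast stem cells, fell by 1.37 on the log2 scale (limma adjusted p = 0.000141). Of 20 tested among 30 effector genes 9 were higher and 10 lower, against 9 and 6 with rescaled libraries. The keratin genes Krt18 (8.52 to 49.9) and Krt8 (3.38 to 20.7), which form the filaments of simple epithelia, rose by 2.42 ± 0.11 and 2.31 ± 0.12 (both limma, adjusted p = 7.69e-05). All 16 genes listed as holding trophoblast fate back in ESCs, a role not tested here, were tested for change and called lower. Their median was -1.74, against -0.76 for all genes, and 13 were called lower with rescaled libraries. Nanog fell from 98.2 to 10.4 and Nr0b1, an orphan receptor of naive ESCs, from 99.9 to 7.12. Of 17 tested Hippo, BMP and FGF genes, 4 rose and 7 fell, against 8 and 5 with rescaled libraries, among them Amotl2 (12.1 to 20.5, higher) and Bmp4 (33.4 to 7.74, lower).

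Markers of other cell types were measured beside these genes. The summed level of 7 further trophoblast markers was 12.4 to 12.5 in ESCs at 0 h and 71.2 to 72.1 at 20 h, nearly all of it Krt8 and Krt18. Prl3d1, the placental hormone of giant cells, was listed at 0 in every library, and Tpbpa and Elf5 reached at most 0.0327 and 0.120 in any library. The 7 mesoderm markers listed summed to 0.446 to 0.732 at 0 h and 0.683 to 0.783 at 20 h, and surface ectoderm markers to at most 0.429. Primitive endoderm markers summed to 9.39 to 9.69 at 0 h and 3.83 to 3.87 at 20 h, and ESC markers to 472.5 to 519.9 at 20 h. The part of these in the members' changes was not tested. In bulk RNA, a change in fewer cells and a change in RNA per cell cannot be told apart.

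In polyadenylated RNA of RAD0, the ESCs read as without retinoic acid, 20 h of IAA came with higher Tfap2c and Hand1 and lower Elf3 and Gata2. Tfap2c was 11.7 and 13.3 at 0 h, 10.2 and 10.9 at 4 h, and 40.4 and 44.7 at 20 h, and its 20 h libraries were above all others by 1.69 ± 0.12 over 0 h (limma, adjusted p = 9.67e-06), a ratio of means of 3.40. Hand1 was 0.0805 and 0 at 0 h, listed at 0 in both 4 h libraries, and 1.34 and 1.90 at 20 h, a change of 1.33 ± 0.19 (limma, adjusted p = 0.000405). Among the RAD0 and RAD1 libraries Hand1 reached 1 only at 20 h, so it passed the filter only through libraries where it was high. Elf3 went from 14.7 and 14.2 over 9.03 and 8.28 to 4.75 and 5.98, with no overlap between times, and fell by 0.68 at 4 h (adjusted p = 0.00375) and by 1.28 at 20 h (adjusted p = 1.66e-05, both limma) on the log2 scale. Gata2 was 3.31 and 3.01, then 2.27 and 2.31, then 0.721 and 0.977, and fell by 1.17 at 20 h (limma, adjusted p = 0.000592). In all, 1 of 6 members that passed the filter was called at 4 h (18.8% of 15408 genes) and 4 of 6 at 20 h (51.4%). The 20 h count includes Hand1, which the filter admitted for its high 20 h values. The median gene changed by -0.11 and -0.13 and none of these directions turned with rescaled libraries.

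The ESC and RAD0 tables were normalized apart and made from total and polyadenylated RNA, so no test was made across them. For Tfap2c the 20 h over 0 h ratio of means was 3.40 in RAD0 and 0.907 in ESC total RNA as deposited, where rescaled libraries gave a higher level at 20 h (0.59 on the log2 scale). Cdx2 in RAD0 was listed at 0 in both 0 h libraries and was 0.222 and 0.297 at 20 h (0.33 ± 0.14, limma adjusted p = 0.0695), and it was called with a pseudocount of 0.1 (adjusted p = 0.0136) and without the trend (adjusted p = 0.0185). Eomes, at 0.898 and 0.839 before and 0.804 and 0.586 at 20 h, was not called (adjusted p = 0.54).

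RAD1 differed from RAD0 without IAA in 5 of 6 tested members, beside 46.7% of all genes. Eomes was 3.70 and 3.18 in RAD1 against 0.898 and 0.839 in RAD0, higher by 1.25 ± 0.18 (limma, adjusted p = 0.00057). Among the RAD0 and RAD1 libraries Eomes reached 1 only in RAD1 at 0 and 4 h, and Cdx2 only in RAD1. Both thus passed the filter only through the group where they were higher. Cdx2, at 0.991 and 1.05 against 0 and 0, was higher by 1.01 ± 0.14 (limma, adjusted p = 0.000363), and Elf3, at 23.8 and 26.8 against 14.7 and 14.2, by 0.77 ± 0.10 (limma, adjusted p = 0.000369). Tfap2c was 5.89 and 7.63 against 11.7 and 13.3, lower by a log2 difference of -0.81 (limma, adjusted p = 0.000773), and Gata2 was 1.60 and 1.69 against 3.31 and 3.01, at -0.65 (limma, adjusted p = 0.0145). The libraries of the 2 groups did not overlap in any of these 5 genes, which were picked as called. Overlap was not counted over all genes. The call of Gata2 was lost when either RAD1 library or RAD0 replicate 1 was left out (adjusted p 0.0532 to 0.0703).

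In RAD1 the members differed in direction after IAA: Hand1, Cdx2 and Tfap2c rose and Elf3 and Eomes fell. Hand1 was 0.153 and 0.161 at 0 h, 0.239 and 0.594 at 4 h, and 9.47 and 7.24 at 20 h, the highest values of this gene in any library of the series, and the 20 h change was 3.00 ± 0.19 (limma, adjusted p = 2.19e-06). Cdx2 was 0.991 and 1.05, then 2.13 in both 4 h libraries, then 4.65 and 4.29, with no overlap between times, and changed by 0.63 ± 0.14 at 4 h (adjusted p = 0.00449) and 1.44 ± 0.14 at 20 h (adjusted p = 2.89e-05, both limma). Tfap2c was 5.89 and 7.63 at 0 h, 24.4 and 23.6 at 4 h, and 34.7 and 29.3 at 20 h. It had thus risen by 1.70 ± 0.12 at 4 h (adjusted p = 1.06e-05) and by 2.09 ± 0.12 at 20 h (adjusted p = 1.65e-06, both limma). With a pseudocount of 0.1 Cdx2 was not called at 4 h (adjusted p = 0.131).

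Elf3 in RAD1 was 23.8 and 26.8 at 0 h, 6.13 and 6.17 at 4 h, and 5.70 and 5.56 at 20 h. It fell by 1.88 on the log2 scale at 4 h (adjusted p = 2.42e-06) and by 1.99 at 20 h (adjusted p = 8.45e-07, both limma), so most of the difference was present at 4 h. Eomes was 3.70 and 3.18, then 0.818 and 1.04, then 0.832 and 0.871, and fell by 1.20 at 4 h (adjusted p = 0.000686) and by 1.26 at 20 h (adjusted p = 0.000371, both limma). The 4 h and 20 h libraries of Eomes overlapped and lay below both 0 h libraries. Gata2 was 1.60 and 1.69 at 0 h and 2.97 and 1.79 at 20 h, and was not called (0.33 ± 0.17, limma adjusted p = 0.14). Without 20 h replicate 2 it was at 0.59 and called (adjusted p = 0.0185). Gata3, below the filter, was 0.180 and 0.150 at 0 h and 0.355 and 0.887 at 20 h, without overlap. In RAD1 4 of 6 tested members were called at 4 h (50.8% of all genes) and 5 of 6 at 20 h (57% of all genes), with medians of all genes at -0.14 and -0.11. Hand1 passed the filter only through 20 h libraries, and Eomes only through RAD1 libraries of 0 and 4 h. The counts therefore lean towards calls of these genes. The 4 h and 20 h comparisons share their 0 h libraries. Beside these changes, the summed retinoic acid response genes of RAD1 were 796.5 to 803.2 at 0 h, 282.8 to 292.4 at 4 h and 148.6 to 163.4 at 20 h. The part of that difference in the members' changes was not tested.

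**Figure D2:**
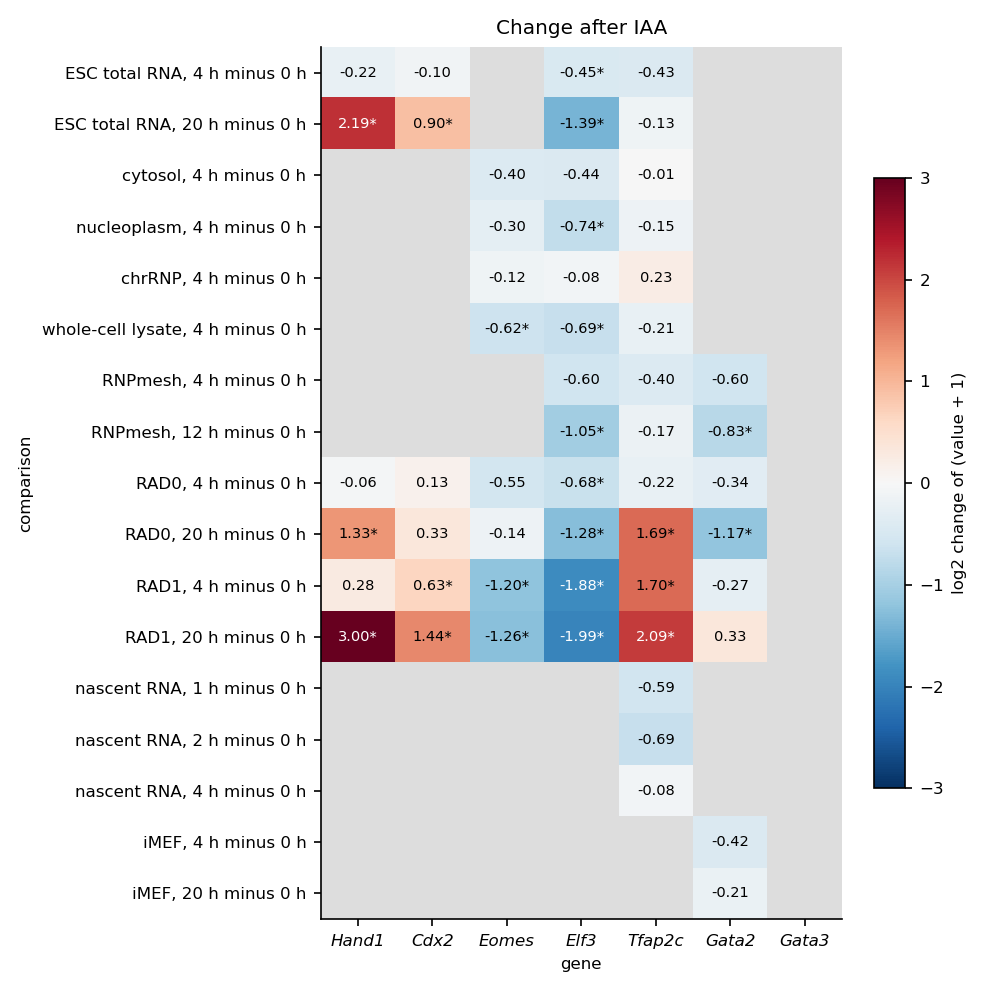
Change of log2(value + 1) after IAA for each gene (columns) in each comparison (rows), with colour from blue (lower) to red (higher), an asterisk at an adjusted p under 0.05 (limma) and grey where the gene was not tested. Elf3 is blue in every comparison in which it was tested, and the asterisks of Hand1, Cdx2 and Tfap2c stand on red, up to 3.00 for Hand1 in RAD1 at 20 h.

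The change after IAA differed between RAD1 and RAD0 in several members, by the test of the difference itself. At 4 h Tfap2c rose in RAD1 and was at -0.22 in RAD0 (not called), a difference of 1.92 ± 0.17 (limma, adjusted p = 0.000164), and Elf3 fell further in RAD1, a difference of -1.20 ± 0.15 (limma, adjusted p = 0.000626). These 2 of 6 members stood beside 27.2% of all genes. At 20 h the difference for Tfap2c was 0.40 ± 0.17 (limma, adjusted p = 0.128), not called, although without RAD1 replicate 2 of 0 h it was (adjusted p = 0.0457). Hand1 (1.68 ± 0.26, adjusted p = 0.0023), Cdx2 (1.11 ± 0.19, adjusted p = 0.0038) and Gata2 (1.50 ± 0.25, adjusted p = 0.00299) had a more positive change in RAD1 than in RAD0 at 20 h, by limma. Elf3 (-0.70 ± 0.15, adjusted p = 0.00884) and Eomes (-1.12 ± 0.25, adjusted p = 0.0135) had a more negative one, again by limma. These are 5 of 6 members, beside 25.6% of all genes. Among them, Hand1 and Eomes passed the filter only through the libraries where they were highest. Cdx2 passed it only through RAD1 libraries, the group where it was higher. The count of 5 therefore leans towards calls of these genes. With a pseudocount of 0.1 the 20 h count was 2, and Hand1, Cdx2 and Eomes were no longer called (adjusted p 0.2, 0.881 and 0.157), so these 3 depend on how low values are treated. Without RAD1 replicate 1 of 0 h the difference for Eomes was not called (adjusted p = 0.0527).

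The related genes of RAD1 at 20 h again moved both ways. Of 22 tested further trophoblast factors 10 were higher and 5 lower, with Junb, an AP-1 factor, going from 2.60 to 25.4 and Fosl1 from 0.407 to 15.5. Of 21 tested effectors 10 were higher and 8 lower. Cldn4 and Cldn6, claudins of epithelial tight junctions, went from 8.25 to 202.9 and from 15.8 to 147.9, and Tfrc, the transferrin receptor, went from 82.0 to 22.8. Of the 16 genes listed as holding trophoblast fate back in ESCs, 2 were higher (Esrrb and Eed) and 9 lower. Among the lower were Nanog (76.2 to 27.1) and Trim28 (334.7 to 159.0), a corepressor of retroviral elements. The list does not exclude genes that also act in trophoblast, such as Esrrb, and the role of each gene was not tested. In all genes 23.1% were called higher and 33.8% lower. The 7 further trophoblast markers summed to 9.69 to 10.1 at 0 h and 42.5 to 44.4 at 20 h in RAD1 and to 2.68 to 3.19 and 8.69 to 8.72 in RAD0, mostly Krt8 and Krt18. In RAD1 primitive endoderm markers summed to 28.8 to 30.1 at 0 h and 7.13 to 7.49 at 20 h, mesoderm markers to 2.29 to 2.65 and 1.15 to 1.27, and surface ectoderm markers to 0.321 to 0.34 and 1.06 to 1.28.

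In subcellular fractions of untreated ESCs the 3 members that passed the filter were lowest in chrRNP and highest in the cytosol. Elf3 was 1.35 and 2.05 in chrRNP, 6.22 and 6.30 in the nucleoplasm and 12.6 and 8.93 in the cytosol. Tfap2c was 1.86 and 2.58, 6.52 and 7.44, and 11.1 and 9.71 in the same order, and Eomes was 0.230 and 0.284, 0.871 and 0.626, and 1.49 and 1.09. None of these 3 sets overlapped between fractions, and overlap was not counted over all genes. The chrRNP minus cytosol difference was -2.12 ± 0.17 for Elf3 (adjusted p = 2.47e-06), -1.83 ± 0.14 for Tfap2c (adjusted p = 1.7e-06) and -0.86 ± 0.16 for Eomes (adjusted p = 0.000477), all by limma. The median gene differed by -0.88 and 77.7% of 14069 genes were called, and relative to it Elf3 was at -1.24, Tfap2c at -0.95 and Eomes at 0.02. Eomes passed the filter only through untreated cytosol and lysate libraries, where it was high. Nucleoplasm was below cytosol for Elf3 (-0.68 ± 0.17, adjusted p = 0.00551) and Tfap2c (-0.51 ± 0.14, adjusted p = 0.0069, both limma), 2 of 3 members beside 61.9% of all genes. Both calls were lost without cytosol replicate 1 (adjusted p = 0.0589 and 0.0545), and that of Tfap2c without nucleoplasm replicate 1 (adjusted p = 0.0623).

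After 4 h of IAA Elf3 was lower in the nucleoplasm and the whole-cell lysate, and Eomes in the lysate. Nucleoplasmic Elf3 went to 3.13 and 3.58 from 6.22 and 6.30 (-0.74 ± 0.17, limma adjusted p = 0.00861), 1 of 3 members beside 30.8% of all genes. In the lysate Elf3 went from 6.18 and 7.01 to 3.72 and 3.68 (-0.69 ± 0.17, adjusted p = 0.0184) and Eomes from 0.864 and 1.21 to 0.295 and 0.347 (-0.62 ± 0.16, adjusted p = 0.0242, both limma), 2 of 3 members beside 19.2%. Among the fraction libraries Eomes reached 1 only in untreated cytosol and lysate. It thus passed the filter only through 0 h libraries, where it was high, and the count of calls depends on that. In chrRNP Elf3 stayed at 1.29 and 1.80, overlapping its 0 h libraries, and no member was called there (limma, adjusted p at least 0.299; 0 at an unadjusted p under 0.05; 8.82% of all genes called). In the cytosol no member was called either, beside 6.45% of all genes, although Elf3 (6.97 and 8.20) and Eomes (0.597 and 0.875) lay below their 0 h libraries. These 2 members had an unadjusted p under 0.05 (limma), as had 2338 of 14069 genes. The fall of Elf3 was not tested between fractions. Leaving out 1 library ended the Elf3 call in nucleoplasm (without 0 h replicate 2 or 4 h replicate 1, adjusted p 0.0506 and 0.0665) and in the lysate (without any of its 4 libraries, adjusted p 0.0553 to 0.113), and the Eomes call in the lysate without 0 h replicate 2 or either 4 h library (adjusted p 0.079 to 0.153).

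**Figure D3:**
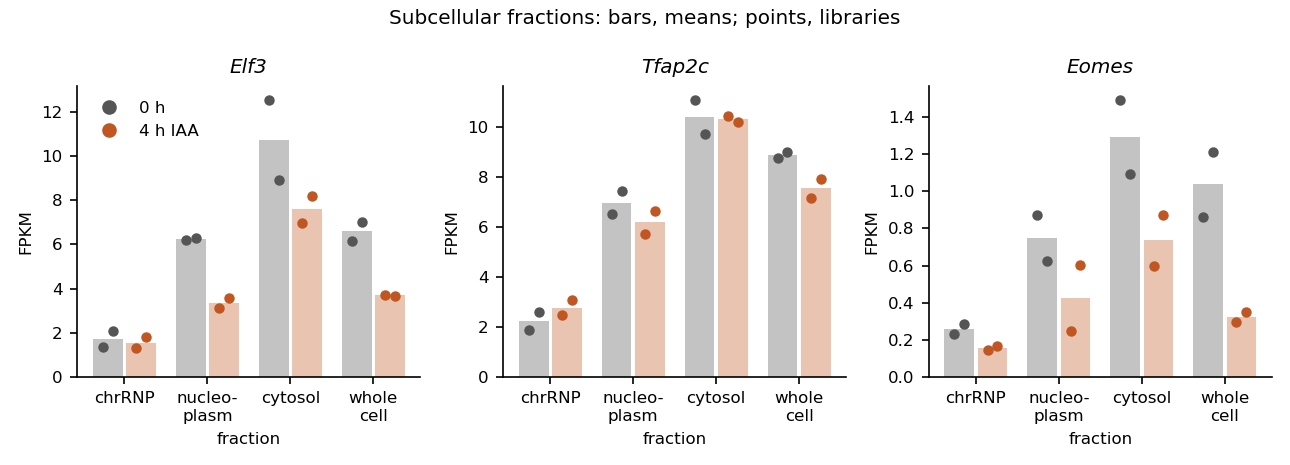
FPKM (vertical axis) of Elf3, Tfap2c and Eomes in 4 fractions (horizontal axis) at 0 h (grey) and 4 h of IAA (orange), with bars at means and points for the 2 libraries. In untreated cells each gene is lowest in chrRNP and highest in cytosol, and whole-cell Elf3 and Eomes are lower at 4 h.

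In the polyadenylated RNPmesh, Elf3 was the most abundant member and fell with time. It was 13.4 and 11.4 at 0 h, 6.94 and 8.82 at 4 h, and 5.69 and 5.26 at 12 h, with no overlap, and the 12 h change was -1.05 ± 0.20 (limma, adjusted p = 0.00317). Gata2 was 1.24 and 1.71, then 0.520 and 0.751, then 0.465 and 0.306, at -0.83 ± 0.21 for 12 h (limma, adjusted p = 0.0107). That call was lost without 12 h replicate 2 (adjusted p = 0.0636), and without either 0 h library Gata2 did not pass the filter. Tfap2c was 3.07 and 3.11 at 0 h and 2.78 and 2.52 at 12 h (-0.17 ± 0.20, limma adjusted p = 0.511). At 12 h 2 of 3 tested members were called, beside 48% of 12725 genes, and at 4 h none (limma; 2 at an unadjusted p under 0.05), beside 24.6%. Of all genes, 5009 had an unadjusted p under 0.05 at 4 h. Among the RNPmesh libraries Gata2 reached 1 only at 0 h, where it was high. It passed the filter only through those libraries, and the counts of members depend on that. Hand1 was listed at 0 in all 0 h and 4 h RNPmesh libraries and was 0.0285 and 0.0543 at 12 h. Cdx2, Gata3 and Eomes were at or below 0.644 throughout.

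Nascent RNA showed little of these genes. Hand1 and Cdx2 had 0 reads in each of the 8 nascent libraries, which allows, as 3 reads, up to 0.0645 to 0.136 RPKM for Hand1 and 0.0410 to 0.0866 for Cdx2 by library. These limits cover counting error of independent reads only. The smallest steps of the values implied 5355567 to 11306969 reads per library. Of the counts above 0, 94.8% to 96.4% were even, so reads may not be independent molecules and the limits may be too low. Tfap2c was 1.57 and 2.69 RPKM at 0 h (154 and 130 reads), 1.15 and 0.956 at 1 h, 1.25 and 0.618 at 2 h, and 1.91 and 1.94 at 4 h (138 and 124 reads). The 1 h and 2 h libraries lay below those of 0 h and both 4 h libraries lay between the 0 h pair. Tfap2c was the member that passed the filter and was not called at 1, 2 or 4 h (limma, adjusted p = 0.902, 0.549 and 0.91), with changes of -0.59 ± 0.24, -0.69 ± 0.24 and -0.08 ± 0.24. Its unadjusted p was under 0.05 at 2 h only, and limma-voom on the recovered reads called it at no time either. Of all 8876 genes 0.0451%, 0.0113% and 1.9% were called, and at 2 h 719 had an unadjusted p under 0.05. Elf3 had 2 to 80 reads, and its 0 h libraries (0.700 and 0.374 RPKM) overlapped those of 1 and 2 h (0.379 and 1.77; 0.248 and 0.559), and it stayed below the filter. Its 4 h libraries were at 0.300 and 0.0565, below those of 0 h, on 12 and 2 reads.

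In iMEFs Gata2 was the member that passed the filter. It was 6.73 and 8.38 at 0 h, 5.00 and 5.71 at 4 h, and 6.90 and 5.89 at 20 h, and was not called at 4 h (-0.42 ± 0.13, adjusted p = 0.146) or 20 h (-0.21 ± 0.13, adjusted p = 0.277, both limma), with 1 and 0 members at an unadjusted p under 0.05. Of 12988 genes 1.63% and 27.4% were called, with medians of -0.17 and -0.19. The unadjusted p was under 0.05 for 3428 of those genes at 4 h and 5491 at 20 h. Hand1 was listed at 0 in 5 of 6 iMEF libraries and 0.0944 in the other, and Cdx2, Tfap2c, Eomes and Elf3 were at or below 0.571 throughout. Gata3 was 0.495 and 0.708 at 0 h and 0.932 and 0.927 at 20 h, below the filter at 1.

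On the sucrose gradients of nuclear lysate, 3 members had a summed value of at least 5 over the fractions at both times. No fraction had a replicate, so these are values side by side, with no test. Elf3 was highest in F4 at 0 h (14.2) and in F5 at 12 h (9.03), and its mean fraction number, weighted by FPKM, was 4.31 and 4.66. Tfap2c was highest in F4 (2.86) and then in F6 (3.18), with means of 5.24 and 5.45. Eomes was highest in F6 at both times (1.65 and 1.06), with means of 5.06 and 5.34. The shifts were 0.352, 0.207 and 0.275 fractions. Among 13056 genes with the same minimum the median shift was 0.436 and 93.1% moved to higher fractions, so the 3 members moved with, and less than, the median gene. Library totals ran from 753233 in F2 to 131766 in F9 at 0 h, and from 764218 to 139617 at 12 h. The highest fractions above hold for values as deposited, and were not determined with equal totals. With each library scaled to an equal total the means were 5.25 and 5.61 for Elf3, 6.30 and 6.50 for Tfap2c, and 5.90 and 6.24 for Eomes. The shifts were then 0.362, 0.199 and 0.342, against a median of 0.411. Gata2 summed to 2.71 and 1.59 over the fractions, and Hand1, Gata3 and Cdx2 to at most 0.432.

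**Figure D4:**
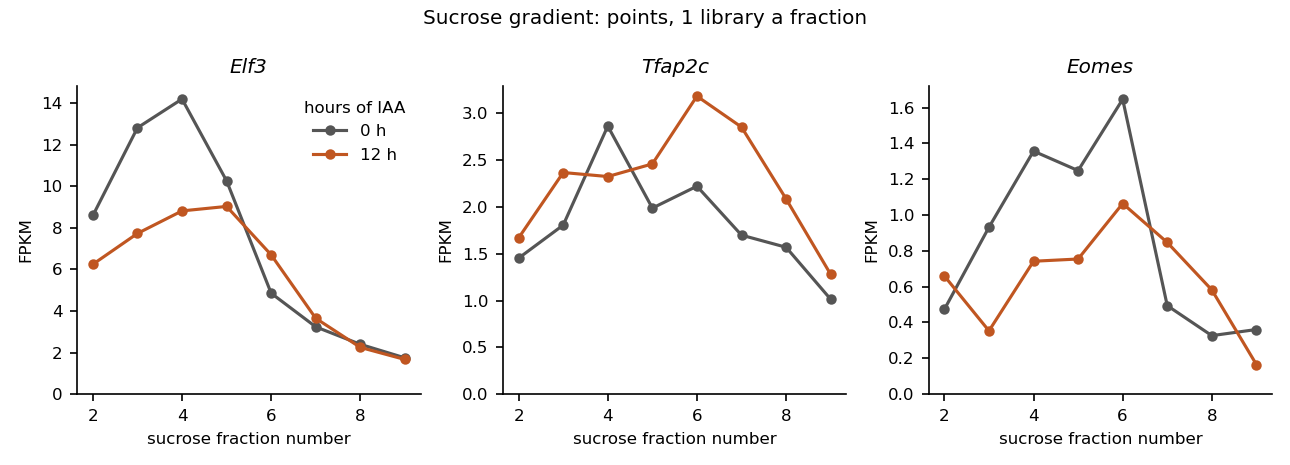
FPKM (vertical axis) of Elf3, Tfap2c and Eomes in sucrose fractions 2 to 9 (horizontal axis) of nuclear lysate at 0 h (grey) and 12 h of IAA (orange), 1 library per point. In values as deposited, Elf3 is highest in fraction 4 at 0 h and 5 at 12 h, Tfap2c in 4 and then 6, and Eomes in 6 at both times. Library totals differ between fractions and are not equalized here.

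H3K27ac, the histone mark of active promoters and enhancers, was given as positions of 16239 peaks at 0 h and 20449 at 4 h in ESCs. The labels name separate untreated sets for the 4 h and the 20 h samples, and which of them gave the 0 h list is not stated, so it may not be the matched control of the 4 h list. Elf3 was the member with a peak within 2 kb of its annotated start, at both times. Among 16312 protein-coding genes with a known strand, 38.8% had such a peak at 0 h and 39.7% at 4 h. The Elf3 peak was chr1:135258183-135259244 at 0 h, which covers the start at 135258568 and the promoter printed above, and chr1:135258592-135259584 at 4 h, whose edge lies 24 bases upstream of the start. Peak heights are not in the lists, so no change in signal was measured. For Hand1 and Tfap2c both ends of the span were used, as the tables give no strand.

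Within 50 kb of the span, a window chosen after the lists were seen, 5 of the 7 genes had peaks and Cdx2 and Gata3 had none at either time. Of the 16312 protein-coding genes 25.8% had none at either time, so this count does not set the members apart. Hand1 had 1 peak at 0 h, chr11:57800092-57801440, and 3 at 4 h. The 2 that overlapped no 0 h peak, chr11:57813439-57814539 and chr11:57820077-57820763, lay 14166 and 7942 bases from the gene, whose RNA was at 0.220 and 0.0580 in ESCs at 4 h. Tfap2c had 5 peaks at 0 h and 8 at 4 h, all outside the gene and at least 8840 bases from it. Eomes had 1 and 2, Elf3 3 and 4, and Gata2 1 and 1. Of the 16312 genes 35.6% had more peaks in this window at 4 h than at 0 h, 12% at least 2 more, and 9.83% fewer, beside a longer list of peaks at 4 h.

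**Figure D5:**
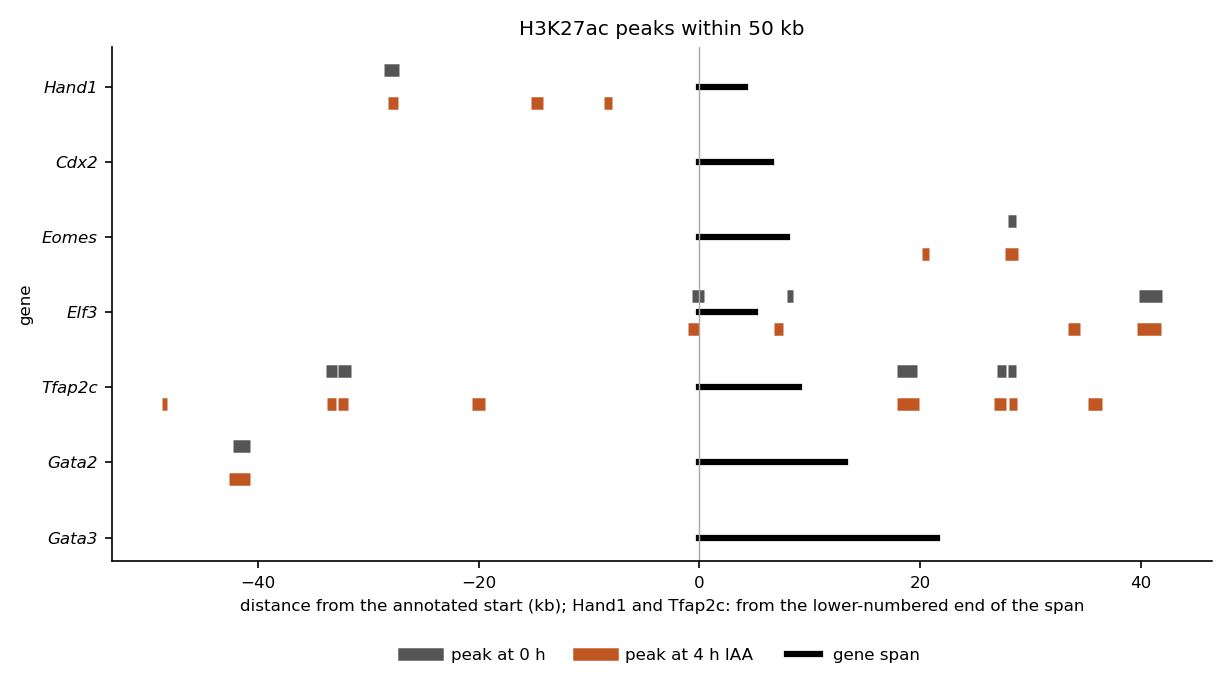
H3K27ac peaks within 50 kb of each gene (rows) at 0 h (grey, above the line) and 4 h of IAA (orange, below the line), by distance in kb from the annotated start, or from the lower-numbered end of the span for Hand1 and Tfap2c; black bars are the gene spans. Elf3 has a peak at its start at both times, Hand1 has 1 and then 3 peaks, Tfap2c 5 and then 8, and Cdx2 and Gata3 have none.

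Genes most like each expressed member were sought over the 54 replicated libraries, as Pearson correlations of log2(value + 1) after centring each gene within each table. These points share libraries, scaling and treatment times, and the values are descriptions. Nearest to Hand1 were Ets1 (0.906), an ETS factor, and Krt8 (0.89), with the pseudogene Krt8-ps (0.889), whose reads may not be separable from those of Krt8. Nearest to Elf3 were Grb7 (0.917), a signalling adaptor, Pgk1 (0.916), a glycolytic enzyme, and Mettl9 (0.91). Nearest to Tfap2c were Hdac6 (0.876), a cytoplasmic deacetylase, Top3b (0.847) and Map4k3 (0.844). Within the single tables where Tfap2c reached 5, Hdac6 and Map4k3 were at 0.864 or above, while Top3b was as low as 0.274 in 1 of them. For Gata2 the highest were Jdp2 (0.742), Irf3 (0.696) and Bin3 (0.686), with lower values than for the other members.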

How the data were processed

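Gene expression was deposited as FPKM by the authors (ESC, iMEF, fraction, RNPmesh, RAD and sucrose tables) and as RPKM by the authors (nascent RNA); the submitters' processing notes name TopHat2 2.0.11, Cufflinks 2.0.2, Bowtie2 2.2.6, MACS2, bedtools, Trim Galore and the builds mm10 and dm6. Spike-ins were added to the fractions, RNPmesh, nascent and sucrose samples per the labels' protocols, but the sources used here do not say if the deposited values use them. A change in the RNA content of a cell is therefore not separable from the scaling. FPKM keep no depth.

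Values were transformed to log2(value + 1). Genes with at least 1 in at least 2 libraries of a table were fitted with limma 3.58.1 (moderated, with trend; R 4.3.3), all groups of a table in 1 model, with Benjamini-Hochberg adjusted p-values and a threshold of 0.05. Each group has 2 libraries, and nothing says that they came from separate cultures, so p-values measure the spread between these libraries. Shared replicate numbers were not taken as pairs: deviations of same-numbered libraries correlated between -0.145 and 0.145. Nascent values were whole multiples of 1 read, within 0.05, for 94% to 95.7% of the low values checked, and limma-voom was run on those reads. Alternatives were a pseudocount of 0.1, no filter, libraries rescaled to a common median, a fit without the trend, a replicate block and the omission of each library in turn. The fits were tested on simulated data. H3K27ac lists hold positions without scores, and were read with Python 3.11.15 and pandas 2.3.3. The 7 genes and all gene lists were chosen with earlier results of these data known. From each list, the genes named are taken from the 2 called genes with the smallest p in each direction, and likeness was computed for members and genes with at least 5 in at least 2 libraries of a table.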

Additional observations from a re-analysis of the deposited data

Results flagged for a closer look

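The change after IAA differed between RAD1 and RAD0, by the limma interaction term, for 2 of the genes at 4 h and 5 at 20 h. Differences are the RAD1 change minus the RAD0 change of log2(FPKM + 1). At 4 h the difference was -1.20 for Elf3, which fell in both groups (-1.88 in RAD1, -0.68 in RAD0), and 1.92 for Tfap2c, which rose in RAD1 (1.70) and was at -0.22 in RAD0. At 20 h it was 1.68 for Hand1 (3.00 against 1.33) and 1.11 for Cdx2 (1.44 against 0.33). It was 1.50 for Gata2, at 0.33 in RAD1 and -1.17 in RAD0, so the directions differ although the RAD1 value was not called. It was -0.70 for Elf3 (-1.99 against -1.28) and -1.12 for Eomes (-1.26 against -0.14). Hand1 and Eomes passed the filter only through the libraries where they were highest, and Cdx2 only through RAD1 libraries, where it was higher. With a pseudocount of 0.1 the 20 h differences of Hand1 (1.36, limma adjusted p = 0.2), Cdx2 (0.19, adjusted p = 0.881) and Eomes (-1.59, adjusted p = 0.157) were not called, which leaves 2. The retinoic acid response genes changed with IAA in RAD1 as well, and their part in these differences was not tested.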

How the results depend on the processing

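Directions and calls of the single genes held in most refits: with the replicate block 82 of 83 results kept direction and side of the threshold, without the filter 82, without the trend 79, with rescaled libraries 77 and with a pseudocount of 0.1 77. Leaving out 1 library left 881 of 920 unchanged, 22 lost the call, 9 gained it and 8 turned sign. The number of members called was 0 for ESCs at 4 h without the filter, with rescaled libraries and with the replicate block (Elf3, adjusted p = 0.0729), which changed no other call. It was 1 in whole-cell lysate with rescaled libraries, 6 for chrRNP minus cytosol without the filter, 2 in RAD0 at 4 h without the trend, and 2 for the RAD1 minus RAD0 difference at 20 h with a pseudocount of 0.1. With the RNPmesh 0 h numbers crossed, a pairing chosen after seeing the data, it was 1 at 4 h. Leaving out 1 library gave 0 to 2 members in ESCs at 4 h, 1 to 3 at 20 h and 1 to 3 from 4 to 20 h. It gave 0 to 1 in nucleoplasm, 0 to 1 in chrRNP (1 without 0 h replicate 2), 0 to 2 in whole-cell lysate, 0 to 3 for nucleoplasm minus cytosol, 1 to 2 in RNPmesh at 12 h, and 1 to 2 in RAD0 at 4 h (2 without 4 h replicate 1). It gave 5 to 6 in RAD1 at 20 h, 4 to 5 for untreated RAD1 minus RAD0, and 2 to 3 and 4 to 6 for the RAD1 minus RAD0 differences at 4 and 20 h. The causes were not tested.

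Sign changes with rescaled libraries were those of Tfap2c, to 0.59 in ESCs at 20 h, 0.0475 in nucleoplasm and 0.00108 in RNPmesh at 12 h. Tfap2c in nascent RNA at 4 h was 0.0768 by limma-voom, and -0.336 to 0.186 when 1 library was left out. Of the uncalled values, Cdx2 in ESCs at 4 h was -0.298 to 0.0944 (positive without 0 h replicate 1 or 4 h replicate 2), and Tfap2c in the cytosol -0.0944 to 0.0811 (positive without 0 h replicate 1 or 4 h replicate 2). Elf3 in chrRNP was -0.268 to 0.107 (positive without 0 h replicate 2 or 4 h replicate 1), and the Gata2 difference at 4 h was -0.0214 to 0.153 (negative without RAD1 4 h replicate 2). Sucrose shifts with equal totals were 0.362 for Elf3, 0.199 for Tfap2c and 0.342 for Eomes. With a window of 50 kb in place of 2 kb, 5 members had an H3K27ac peak at 0 h and 5 at 4 h. In that window 25.8% of 16312 protein-coding genes had none at either time. Most members lie at a few FPKM or less, where depth is unknown and 2 libraries set the error.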
